A study of Mus musculus with 4 samples.

Results

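The mitochondrial ribosomal protein genes are the nuclear genes named Mrpl or Mrps, followed by a number and in some cases a letter. They were chosen by name alone: 78 gene names in the annotation matched this pattern, all 78 had at least 1 transcript typed as protein-coding, and all 78 were present in the 4 gene tables among 55536 annotated genes. Of these members, 49 are named Mrpl, for the large subunit, and 29 are named Mrps, for the small subunit. Their levels were measured in 4 libraries of total RNA depleted of ribosomal RNA, prepared from the cytosol of mouse macrophages of strain C57BL/6J. The cells were phagocytes grown in culture from bone marrow precursors. All 4 libraries belong to 1 group: the cells received 100 ng/ml lipid A, the Toll-like receptor 4 ligand of bacterial lipopolysaccharide, for 12 h, were washed for 12 h, and received 100 ng/ml lipid A again for 15 min. No second group was measured here, so none of the levels can be read as a response to the treatment. The labels call the libraries biological replicates 1 to 4 and name 1 donor record for all of them, give no sex or age, and do not say whether the cultures came from separate animals. The p-values below therefore measure only the spread between these libraries, which may be technical.

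The mitochondrial ribosome translates the few mRNAs encoded by mitochondrial DNA, all of which code for core subunits of the respiratory chain and of ATP synthase. Its RNAs come from mitochondrial DNA, whereas its proteins are encoded in the nucleus, made in the cytosol and imported. Compared with its bacterial ancestor it has less RNA and more protein: some of its proteins descend from bacterial ribosomal proteins, and others were added during the evolution of mitochondria.

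Libraries held between 30660511 and 48223718 expected counts, the gene-level count estimates of the first of the deposited quantifications. TPM, a transcript abundance, is the level per unit of transcript length relative to all RNA of the library. The 10 macrophage markers checked were all called above 1 TPM. Among markers of other cells that could be present in a marrow culture, 2 of 8 neutrophil genes (S100a8 and S100a9), 1 of 6 T cell genes (Cd4), 1 of 5 B cell genes (Cd79b), and 0 of 5 natural killer cell, 0 of 5 erythroid and 0 of 6 fibroblast genes were called above it. Nuclear RNA differed between the libraries, with Malat1 at 55.7, 719.3, 416.2 and 295.2 TPM in replicates 1 to 4, and the median mRNA encoded by mitochondrial DNA stood at 69.9, 166.7, 141.7 and 90.2 TPM. Both were lowest in replicate 1 and highest in replicate 2.

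All 78 members were called above 1 TPM (limma on log2(TPM + 0.1), one-sided, Benjamini-Hochberg adjusted over 16262 genes). The largest adjusted p of a member was 3.24e-06, that of Mrpl19. The background was 58.2% of all genes tested and 71.5% of the 12592 protein-coding genes tested. No member was called below 1 TPM, against 35.1% of all genes and 22.2% of protein-coding genes tested, and 0 were below it at an unadjusted p under 0.05 either. In the second quantification, made directly from the read files, 76 members were above 1 TPM and 2 were not called: Mrpl23, which has an expressed pseudogene copy, and Mrps27. The share of all genes above 1 TPM was not taken there. TPM were lower in it for genes in general, with a median log2 difference of -1.40 from the first, so the same level was a stricter one. The median member stood at 14.3, 11, 12.3 and 14 TPM in replicates 1 to 4, a mean of 12.9 ± 1.57 (SD, n = 4), where the median protein-coding gene tested stood at 4.86 ± 0.58 TPM. By mean level, members lay between the 44.8 and the 94.9 percentile of the protein-coding genes tested. Together they held 0.1667% of the gene counts in replicate 1 (exact 95% Clopper-Pearson interval 0.1652% to 0.1681%), 0.1485% in replicate 2 (0.1473% to 0.1498%), 0.1420% in replicate 3 (0.1409% to 0.1431%) and 0.1370% in replicate 4 (0.1359% to 0.1382%). The intervals, which cover counting error only, did not overlap between libraries. In bulk RNA, fewer cells of a type and less RNA per cell cannot be told apart.

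The members were not present at equal levels. The highest mean was 19.7-fold the lowest, and the SD of the log2 level across the 78 genes was 0.89. Relative to the median member of the same library, 7 members were over 2-fold higher and 8 over 2-fold lower (limma treat, adjusted over all genes tested). By the same test 10.4% of all genes tested lay over 2-fold above the median member and 61.8% over 2-fold below it, and of the protein-coding genes 12.8% and 52.5%. The other 63 members were called on neither side.

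**Figure D1:**
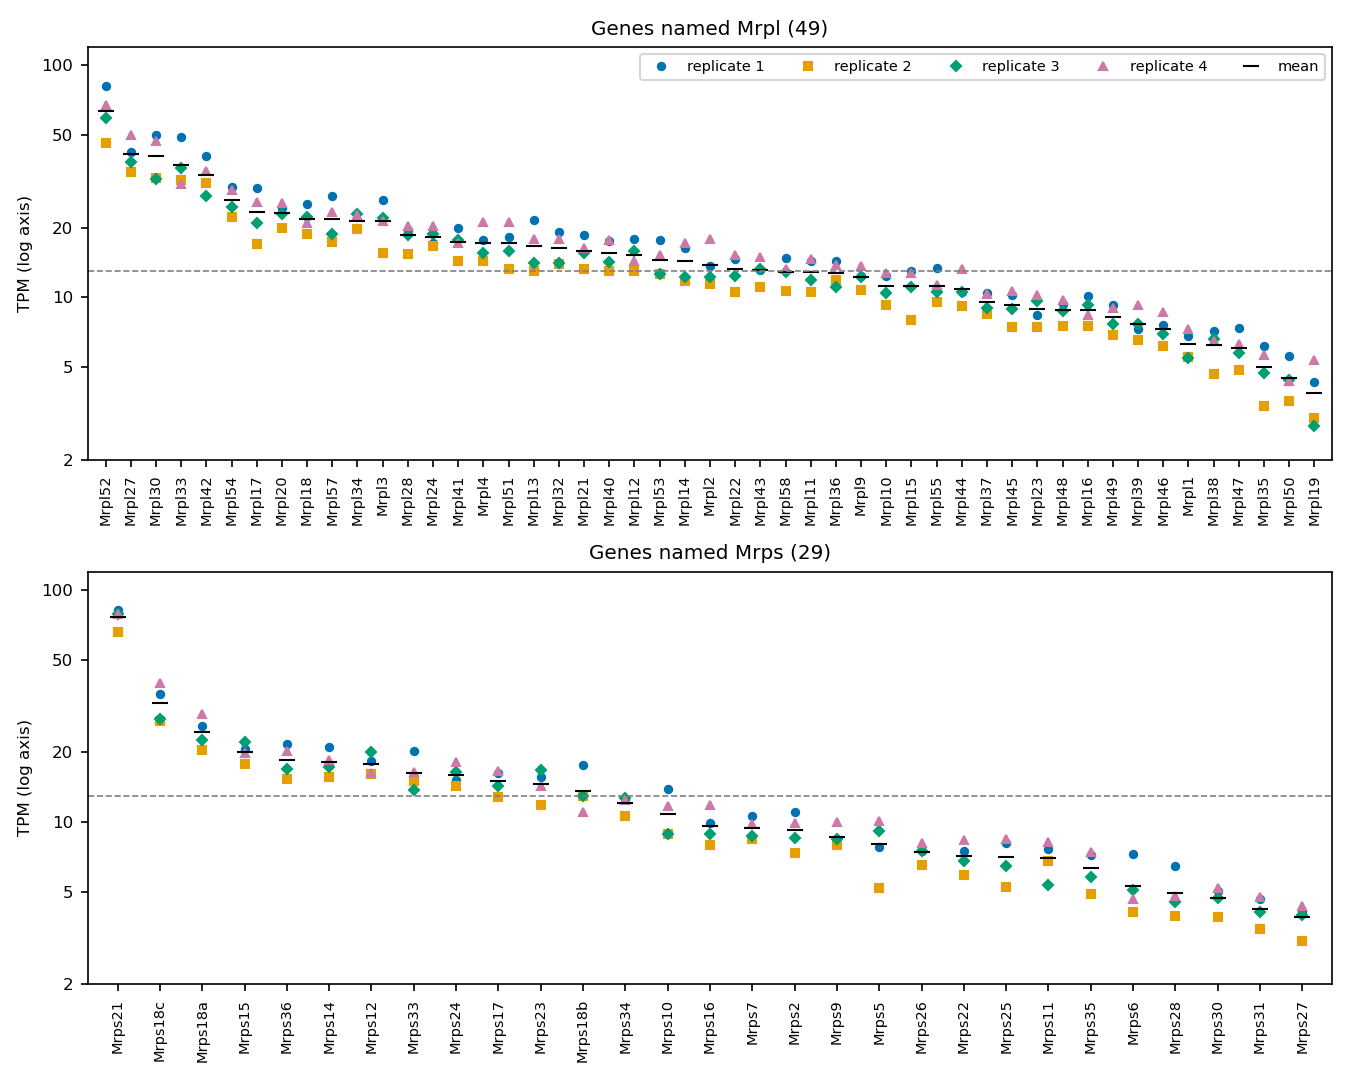
TPM of every member in every library (log axis), sorted by mean within the genes named Mrpl (upper panel) and Mrps (lower panel). Symbols are the 4 replicates, short black bars the means, and the dashed line the median of the 78 means, 13.0 TPM. Mrps21 and Mrpl52 stand apart at the top, and the orange squares of replicate 2 are the lowest point of 68 members.

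Mrps21 encodes the mitochondrial counterpart of bacterial protein S21 of the small subunit and had the highest level of all members, at 82.2, 65.7, 78.8 and 78.7 TPM in replicates 1 to 4 (76.3 ± 7.3, SD, n = 4). That is a log2 difference of 2.56 ± 0.07 (SE) from the median member (limma treat, adjusted p = 3.19e-07). The gene lies at chr3:95862634-95871519 on the minus strand (mm10). Mrpl52, a large subunit protein with no bacterial counterpart, was second at 81.8, 46.4, 59.6 and 67.4 TPM, 2.27 ± 0.09 above the median member on the log2 scale. The ranges of Mrps21 and Mrpl52 overlap, whereas every library of either gene except replicate 2 of Mrpl52 exceeded every library of the members ranked below them.

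The next 5 were closer to each other. Mrpl27, whose bacterial counterpart L27 reaches into the peptidyl transferase centre, stood at 42.5, 34.8, 38.3 and 49.9 TPM. Mrpl30 stood at 50.2, 32.7, 32.5 and 47.4 TPM, and its ranges cannot be separated from those of Mrpl27. Mrpl33 was measured at 49, 32.2, 36.2 and 30.8 TPM, high in replicate 1 only. Mrpl42, which has no bacterial counterpart, was at 40.5, 31.1, 27.4 and 35.2 TPM. Mrps18c was at 35.8, 27.2, 27.8 and 39.8 TPM, and these 5 genes overlap one another in range. Their log2 differences from the median member ran from 1.32 for Mrps18c to 1.67 for Mrpl27, each with an SE of at most 0.11.

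At the lower end were proteins of both subunits. Mrpl19, the counterpart of bacterial L19 at the interface of the subunits, was lowest at 4.31, 3.02, 2.78 and 5.37 TPM. Its log2 difference from the median member was -1.75 ± 0.13 (limma treat, adjusted p = 0.000642). Its counts were 767, 794, 1050 and 856. The leading transcript was 5000 bases long in the first quantification (75.8% ± 18.6 of its TPM) and 419 bases in the second (52.6% ± 10.6). Mrpl19 was not the lowest member in the second, at 2.33 TPM on average against 1.37 for Mrps27. Mrps27, a small subunit protein with pentatricopeptide repeats, was measured at 4.15, 3.07, 3.98 and 4.33 TPM. Mrps31 stood at 4.64, 3.47, 4.08 and 4.73 TPM. The ranges of these 3 overlap, although Mrps31 was above Mrps27 in each library, and all 12 values lie under the lowest value of the median member.

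Mrpl50 followed at 5.6, 3.59, 4.41 and 4.36 TPM, and Mrpl35 at 6.17, 3.42, 4.74 and 5.65 TPM. Mrps30 was at 5.05, 3.91, 4.72 and 5.18 TPM. Although named for the small subunit, its protein sits in the large one. Mrps28, the mitochondrial S1 protein, was at 6.46, 3.93, 4.53 and 4.79 TPM, and Mrps6 at 7.27, 4.11, 5.09 and 4.64 TPM. Both were highest in replicate 1. Mrps6 is the weakest of the 8 calls below the median member (log2 difference -1.30 ± 0.12, adjusted p = 0.0269): it is lost without replicate 2 (-1.27), without replicate 3 (-1.31) or without replicate 4 (-1.21). In the second quantification the calls of Mrpl19 (-1.01) and Mrpl35 (-0.92) are lost, and Mrpl23 is called below the median member instead.

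By subunit, the median gene named Mrpl stood at 14.8, 11.8, 12.6 and 15.2 TPM and the median gene named Mrps at 11.1, 8.47, 8.85 and 11.1 TPM, so the first was higher within each library. Sorted by descent, the 29 large subunit proteins with a bacterial counterpart had a median of 15.4 ± 2.16 TPM and the 21 without one 11.6 ± 1.82. The 16 small subunit proteins with a bacterial counterpart had a median of 10.5 ± 1.92 TPM and the 9 without one 7.15 ± 1.04. In every library the order of these 4 medians was the same. These are descriptions of lists, each over 4 libraries, and no test compared them. The spread within each list is wide, from 3.87 to 41.4 TPM in the first of them.

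**Figure D2:**
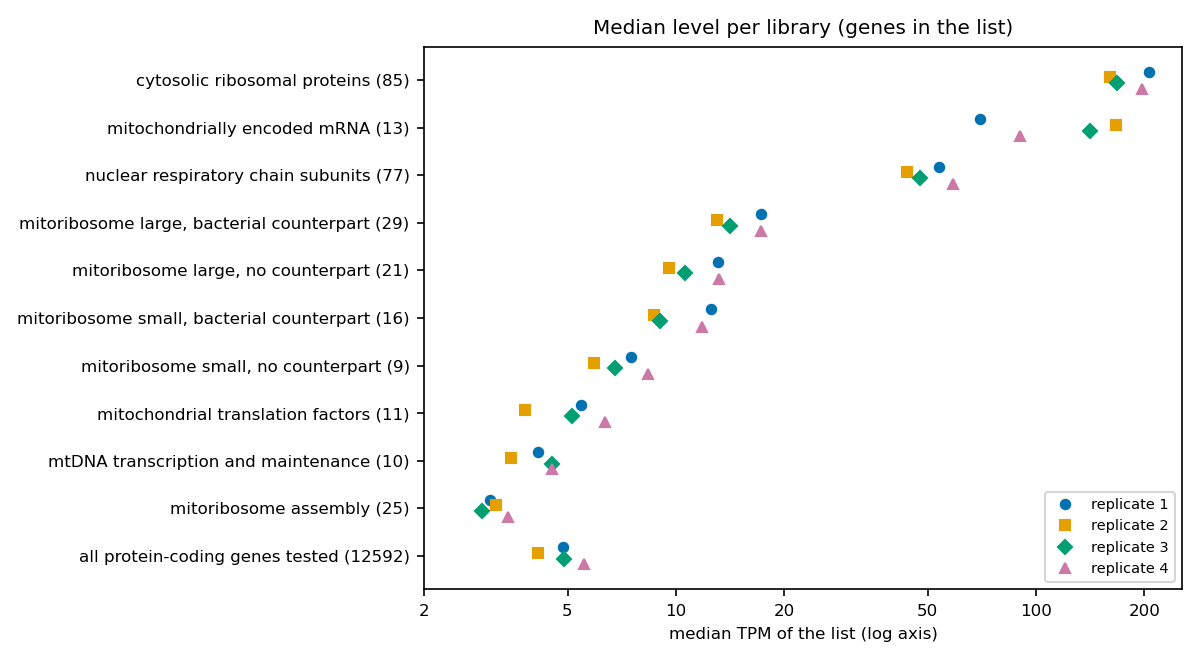
Median TPM of each gene list in each library (log axis; symbols are the 4 replicates, numbers in brackets the genes in the list). The 4 mitoribosome lists lie between the nuclear respiratory chain subunits and the mitochondrial translation factors, and the mRNAs encoded by mitochondrial DNA were highest in replicate 2, where the mitoribosome lists were lowest.

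The factor-binding stalk of the large subunit recruits the translation factors, and its proteins bind in a fixed arrangement. Mrpl12, which forms the stalk itself in several copies, stood at 17.8, 13, 15.9 and 14.4 TPM. Mrpl10, which anchors Mrpl12 to the ribosome, stood at 12.4, 9.32, 10.4 and 12.8 TPM. Mrpl12 was the higher of the pair in each library, by less than 2-fold. Mrpl11 at the base of the stalk had a mean of 12.9 ± 1.95 TPM, and Mrpl53 and Mrpl54, mitochondrial additions, 14.5 ± 2.44 and 26.3 ± 3.6 TPM. These 5 were described as a list and named after their values were seen.

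The 3 paralogs of S18 occupy 3 different places. Mrps18c replaces bacterial S18 in the small subunit, Mrps18b sits elsewhere in the small subunit, and Mrps18a sits in the large subunit. Mrps18a was measured at 25.9, 20.5, 22.5 and 29.2 TPM, between its paralogs, and Mrps18c at the values given above. Mrps18b stood at 17.6, 12.9, 12.9 and 11.1 TPM. In each library the order was Mrps18c, Mrps18a, Mrps18b. On deposited TPM Mrps18b was highest in replicate 1 and lowest in replicate 4, where its paralogs were highest. Rescaled to protein-coding genes, all 3 were highest in replicate 1, at 81.7 TPM for Mrps18a, 55.6 for Mrps18b and 112.7 for Mrps18c. On that scale Mrps18b was still lowest in replicate 4, at 30.4 TPM, and its paralogs were lowest in replicate 3.

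Mrps36, whose product is a component of the alpha-ketoglutarate dehydrogenase complex and not of the ribosome, was within the range of the ribosomal members at 21.6, 15.4, 16.9 and 20.3 TPM. Mrpl58, a peptidyl-tRNA hydrolase that releases stalled chains and also sits in the large subunit, had a mean of 12.9 ± 1.72 TPM, at the median of the members. Mrps15, the counterpart of bacterial S15, completes the highest 5 named Mrps, at 20.7, 17.8, 22.1 and 19.9 TPM.

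Mitoribosomal proteins with other names were also all above 1 TPM, 5 of 5. Chchd1 stood at 29 ± 4.85 TPM and Aurkaip1 at 24 ± 2.35 TPM, above most members, and the median of the 5 was 9.54 ± 0.41 TPM. All 11 mitochondrial translation factors were above 1 TPM, with a median of 5.19 ± 1.06. The elongation factor Tufm led them at 13.7 ± 1.42 TPM, and Oxa1l, which inserts the new chains into the inner membrane, followed at 10.1 ± 0.959. Of 25 genes for assembly and rRNA modification, 22 were above 1 TPM, and Mettl15 (0.37 ± 0.0804 TPM) and Ybey (0.693 ± 0.0519 TPM) were below it. The first is a methyltransferase of the small subunit rRNA and the second an endoribonuclease. The median of these 25 was 3.13 ± 0.221 TPM, lower than the median member in each library, and the highest were Rbfa at 16.1 ± 2.38 and Mpv17l2 at 14.1 ± 1.86 TPM. Of 10 genes for transcription and upkeep of mitochondrial DNA, 7 were above 1 TPM and 0 below it.

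Respiratory chain subunits encoded in the nucleus were more abundant as mRNA than the members. The 77 entries of this list, which include a second entry of Atp5o at 0 TPM, had a median of 51 ± 6.56 TPM, with 76 of 76 tested above 1 TPM. The cytosolic ribosomal proteins, which build the other ribosome of the cell, had a median of 182.8 ± 21.8 TPM over 85 genes, with 82 of 83 tested above 1 TPM. In every library the median of the respiratory chain list exceeded that of the members, and the median of the cytosolic list exceeded both. Of the members, only Mrps21 and Mrpl52 had means above the median of the respiratory chain list.

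The deposited TPM of the members differed between libraries. Replicate 2 was the lowest library for 68 of 78 members, and replicate 4 (37 members) or replicate 1 (36) was the highest for most. Genes in general were also low in replicate 2. The median member departed from the mean of the other 3 libraries by 0.22, -0.33, -0.08 and 0.19 on the log2 scale in replicates 1 to 4. The 4215 protein-coding genes of at least 10 TPM departed by 0.05, -0.37, -0.02 and 0.34. TPM are shares of all RNA, and the share held by protein-coding genes differed: bringing it to the same total in each library multiplied values by 3.15, 3.95, 3.34 and 2.73 in replicates 1 to 4. On that rescaled basis the median member stood at 42 ± 2.97 TPM, replicate 1 was the highest library for 48 members and replicate 4 the lowest for 41. The median member then departed from the mean of the other 3 libraries by 0.16, 0.04, -0.04 and -0.15 on the log2 scale, where 4215 protein-coding genes of at least 10 TPM departed by -0.02, 0.00, 0.02 and -0.00. The respiratory chain list departed by 0.10, 0.04, -0.03 and -0.09, and the cytosolic ribosomal proteins by 0.12, 0.18, -0.09 and -0.21. The mRNAs encoded by mitochondrial DNA departed by -0.97, 1.10, 0.55 and -0.74 and the nuclear RNAs by -1.79, 1.90, 0.80 and -0.25. The part of these differences in the members' levels was not tested.

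**Figure D3:**
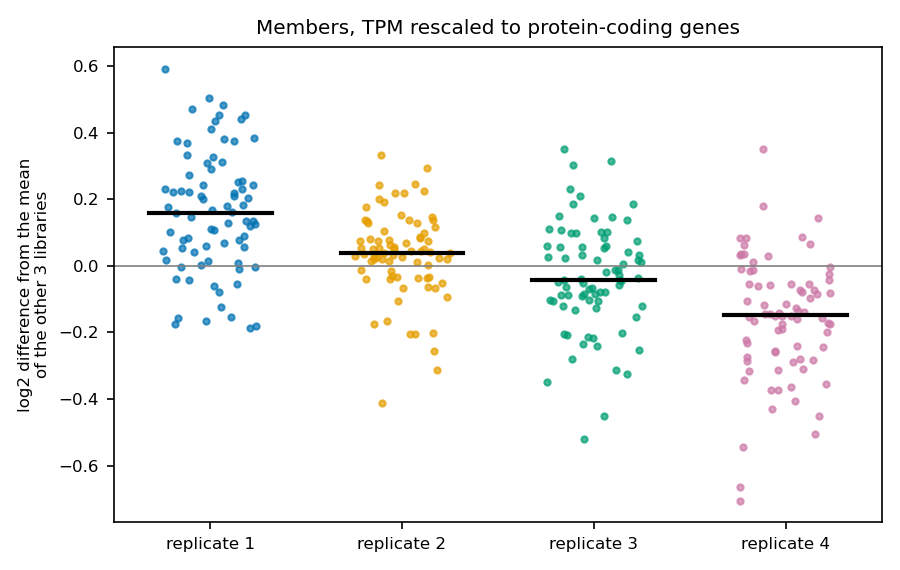
Log2 difference of each member in each library from its mean in the other 3 libraries, with TPM rescaled to protein-coding genes. Points are the 78 members, spread sideways for legibility, and black bars the medians, which are 0.16, 0.04, -0.04 and -0.15 in replicates 1 to 4.

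The spread of a gene between libraries was measured as its biological coefficient of variation (BCV, edgeR with TMM scaling). It had a median of 0.148 over the members, from 0.118 to 0.247, of 0.143 over the 4381 genes of at least 10 TPM, which 49 of the members reach, and of 0.153 over all genes of at least 1 TPM, which all members reach. Mrps21, Mrpl9 and Mrpl24 had the smallest values at 0.118, 0.119 and 0.12. Mrpl9, the counterpart of bacterial L9, was measured at 12.4, 10.8, 12.2 and 13.6 TPM and Mrpl24 at 17.2, 16.6, 18.7 and 20.3 TPM. On this deposited scale replicate 2 was lowest and replicate 4 highest for both, as for genes in general. Rescaled to protein-coding genes, replicate 2 was the highest for both, at 42.9 TPM for Mrpl9 and 65.8 TPM for Mrpl24. Mrps6 (0.247), Mrps28 (0.235) and Mrps18b (0.202) had the largest values, and all 3 were highest in replicate 1. These edgeR values are moderated, that is, drawn toward a trend over all genes. With the gene-wise dispersions of DESeq2, which are not moderated, the median of the members was 0.0854 and that of the genes of at least 10 TPM 0.112. The order of these medians therefore turns with the estimate used as well as with the genes compared.

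Shorter genes among the members had higher levels. The leading transcript of a member, the one with the largest share of its TPM, had a median length of 914 bases, from 418 for Mrpl52 to 5000 for Mrpl19, where the median over protein-coding genes tested was 2677. Across the 78 members the log2 level fell with the log2 length of the leading transcript (Pearson r = -0.55, Spearman rho = -0.49). The same description gave r = -0.52 over 82 cytosolic ribosomal protein genes, r = -0.34 over 76 respiratory chain genes and r = -0.11 over the 12592 protein-coding genes tested. TPM contains a division by length, genes share the libraries, and genes are not independent replicates, so no p is given. In the second quantification r was -0.45. In counts, which are not divided by length, the correlation with length was 0.25.

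One member shares its sequence with an expressed pseudogene. Mrpl23 lies at chr7:142532686-142540747 on the plus strand, and the processed pseudogene Mrpl23-ps1 at chr2:74591330-74591909 on the minus strand (mm10). An alignment of the leading Mrpl23 transcript (692 bases) with the pseudogene (580 bases) gave 540 aligned bases with 0 mismatches, which include all 441 coding bases, stop codon counted. The first 120 coding bases are shown for both because reads from this stretch match both genes equally. They are bases 1 to 120 of the coding sequence and bases 18 to 137 of the pseudogene, from the reference transcripts. There are no capitals because no base differs.
Mrpl23: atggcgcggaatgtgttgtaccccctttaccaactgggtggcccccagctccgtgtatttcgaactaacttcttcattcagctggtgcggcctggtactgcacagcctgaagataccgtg
Mrpl23-ps1: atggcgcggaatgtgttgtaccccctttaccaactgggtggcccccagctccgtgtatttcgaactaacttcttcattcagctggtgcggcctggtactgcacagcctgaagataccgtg

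The quantifications divided these reads differently. In the first, Mrpl23 was given 8.43, 7.45, 9.69 and 10.2 TPM and Mrpl23-ps1 13.5, 9.27, 9.89 and 9.95 TPM. In the second, Mrpl23 was given 1.18, 1.03, 0.768 and 0.534 TPM and the pseudogene 9.27, 6.4, 5.03 and 5.48 TPM. Mrpl23 held 50.8% ± 5.04 (SD, n = 4) of the joint counts in the first quantification and 16.8% ± 3.59 in the second, and these ranges do not overlap. The joint counts were nearer to each other, with means of 496 and 541. The level of Mrpl23 alone is therefore uncertain in both, and the files do not say how much RNA either locus made.

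**Figure D4:**
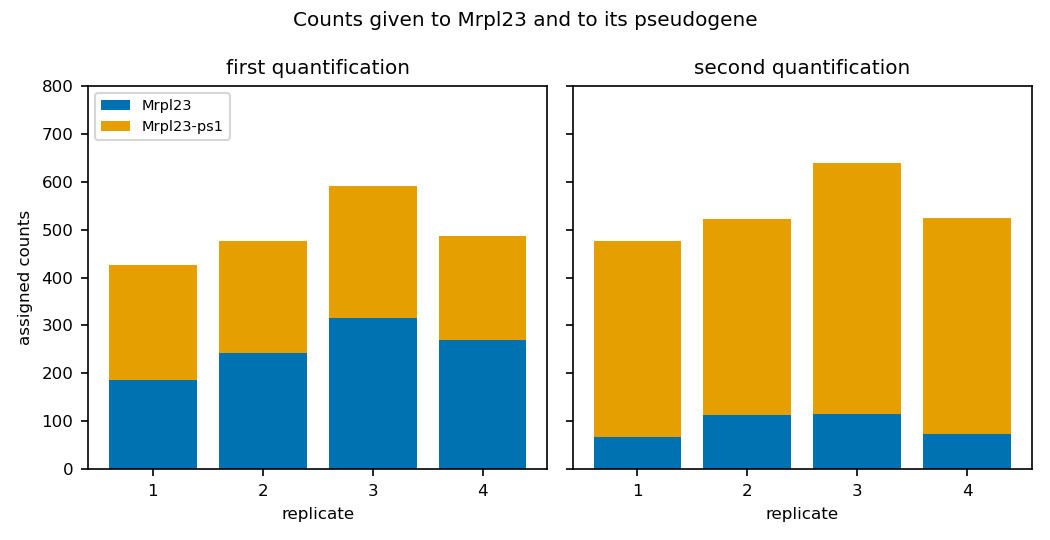
Expected counts (first quantification, left) and estimated counts (second quantification, right) given to Mrpl23 (blue) and stacked on them those given to its pseudogene Mrpl23-ps1 (orange), by replicate. The full bars are of like height in both panels, whereas Mrpl23 holds 43.8% to 55.3% of them on the left and 14% to 21.5% on the right.

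Pseudogene copies of other members were given few reads. In all, 16 members had an annotated pseudogene copy at 95% identity or more over at least 200 aligned bases, and apart from Mrpl23-ps1 none of these copies had a mean above 0.23 TPM in the first quantification or 0.0262 in the second. Mrpl53 is contained whole in the annotated read-through gene Gm42688, which was given 0.47 TPM on average, and both are uncertain for that reason. In counts of the first quantification Gm42688 was given 60, 149, 106 and 103 and Mrpl53 420, 423, 467 and 433. Mrps6 shares 306 bases with another read-through gene, Gm49711, at 0.005 TPM on average. Mrps26 has 9 further hits of 200 to 208 bases in other genes, each under 5% of its longest transcript. Across the 78 members the log2 levels of the first and second quantification had r = 0.96. On deposited TPM 2 members were over 2-fold lower in the second and 0 higher (limma treat on the difference within a library, adjusted over 10329 genes). The background was 4.28% lower and 2.22% higher. At an unadjusted p under 0.05, 54 members (69.2%) were lower and 0 higher, where 44.4% of all genes tested were lower and 2.31% higher. These 2 were Mrpl23 (log2 difference -3.25) and Mrps12 (-1.74), the counterpart of S12 in the decoding centre, which was given 18.3, 16.1, 20.1 and 16.2 TPM by the first and 7.21, 5.57, 4.59 and 3.89 TPM by the second.

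Most genes shared that shift: the median over all genes tested was -1.40 and over the members -1.46. With both rescaled to protein-coding genes the medians were 0.05 and -0.02, and 0 members were called in either direction, against 0.956% of 14119 genes lower and 3.31% higher. The limit of 1 TPM was applied to the rescaled values, which are larger, so more and lower genes were tested than on deposited TPM. The shares and adjusted p of the 2 scales are therefore not over the same genes. At an unadjusted p under 0.05 there were then 1 lower, Mrpl23 (-1.92 ± 0.18, SE; adjusted p = 0.0775), and 0 higher, where 1.91% of all genes tested were lower and 8.12% higher. Mrps12 stood at -0.30 on that scale, and without replicate 3 (-1.62) or replicate 4 (-1.65) its call on deposited TPM is lost. Leaving out either of these libraries takes the count of lower members from 2 to 1.

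The transcripts given to some members do not encode the full protein, per the annotation. Transcripts typed protein-coding held 85.4% ± 0.516 (SD, n = 4) of the summed TPM of the members, where the same share over the protein-coding genes tested was 92.9% ± 0.693. Transcripts typed as targets of nonsense-mediated decay, a pathway that degrades mRNAs with an early stop codon, held 5.81% ± 0.553 of the members' TPM and 1.67% ± 0.0361 over protein-coding genes. Retained-intron transcripts held 4.41% ± 0.417 and 3.24% ± 0.56. Transcripts typed as processed, with no coding sequence assigned, held 4.4% ± 0.153 and 2.19% ± 0.105. These are shares of summed TPM, in which the most abundant genes weigh most. They were not taken over genes at the members' levels, so the differences cannot be read as particular to the members. Of the members, 12 were led by a transcript of another type than protein-coding in both quantifications, and in 73 of 78 both named the same leading transcript. These counts were not made over all genes tested, so they cannot be read as particular to the members.

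Mrpl57, a small protein of the large subunit, was measured at 27.4, 17.3, 18.8 and 23.3 TPM, of which the retained-intron transcript Mrpl57-202 held 94.8%, 95%, 94.3% and 93.5%. Mrps14, the counterpart of bacterial S14, was at 21, 15.7, 17.2 and 18.6 TPM, of which Mrps14-201, typed as a decay target, held 85.7%, 89.2%, 88.5% and 89.5%. Mrpl3, the counterpart of bacterial L3, was at 26.3, 15.5, 22.1 and 21.3 TPM, and its decay-typed transcripts together held 68%. The leading one held 44.8% ± 5.38. Mrpl51 was at 18.3, 13.2, 15.9 and 21.1 TPM, and its transcript typed as processed held 58.3% ± 5.72. For Mrpl57, Mrps14 and Mrpl51 the leading type was stable between libraries, with no library under 49.9%.

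The others led by a transcript of another type in both were Mrpl15, Mrpl32, Mrpl35, Mrpl47, Mrps16, Mrps25, Mrps26 and Mrps35. In Mrpl32, singled out after its values were seen, which needs proteolytic maturation before it enters the ribosome, decay-typed transcripts held 91.4% in the first quantification and 92.6% in the second. In all, 11 members were split, with a leading transcript under 60% in both quantifications: Mrpl3, Mrpl13, Mrpl23, Mrpl24, Mrpl30, Mrpl40, Mrpl48, Mrpl55, Mrps5, Mrps10 and Mrps11. This count was not made over all genes tested either. In Mrpl30 the leading transcript held 47.6%, 41.6%, 36% and 41.3%, and in Mrpl24 37%, 30.7%, 32.1% and 31.4%. In both genes protein-coding transcripts together held at least 96.7%, so the split was among coding forms. The division of reads among the transcripts of a gene is an estimate of the quantification, not a count.

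**Figure D5:**
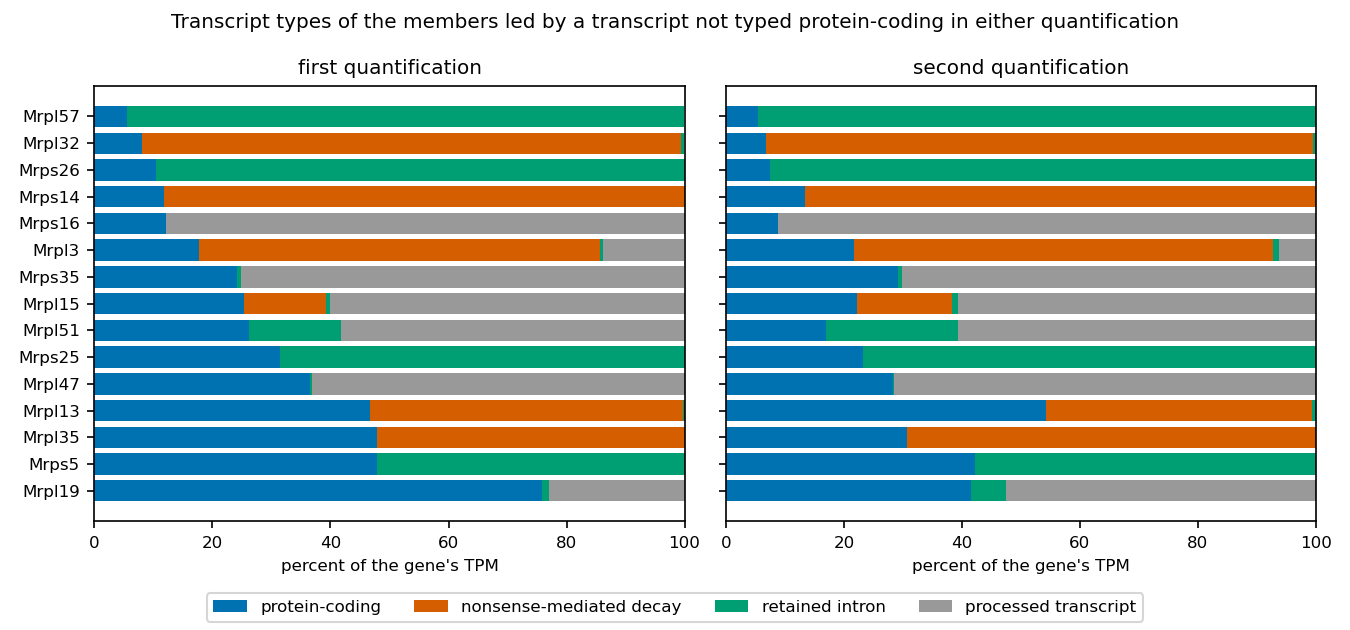
Percent of the TPM of a gene held by each annotated transcript type (mean of 4 libraries), for the 15 members led by a transcript not typed protein-coding in at least 1 quantification. Left is the first quantification and right the second. Orange, green and grey fill most of the bars of Mrpl57, Mrpl32, Mrps26, Mrps14 and Mrps16 in both panels.

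Many members share a start region with a gene on the other strand. For 33 of 78 (42.3%) a protein-coding gene on the opposite strand starts within 1000 bases, where the share was 16.9% of the protein-coding genes tested, 39.5% of the respiratory chain genes and 19.3% of the cytosolic ribosomal protein genes. These shares are descriptions of the annotation. The members lie on 17 chromosomes, with 11 on chromosome 11 and 8 on chromosome 17. Only Mrpl46 and Mrps11 are a head-to-head pair of members: the genes overlap on chromosome 7 at their starts (-412 bases between them), and they were measured at 7.34 ± 1.05 and 6.99 ± 1.25 TPM. These pairs were named after their values were seen.

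Some partners were at other levels and some at like levels. Mrps18c (32.7 ± 6.16 TPM) starts 29 bases from Helq, a DNA helicase gene at 0.985 ± 0.121 TPM. Mrpl10 (11.2 ± 1.65 TPM) starts 153 bases from Lrrc46, which was listed at 0 TPM in 3 of 4 libraries and at 0.01 in the other. Mrpl49 (8.22 ± 1.1 TPM) starts 59 bases from Fau, a cytosolic ribosomal protein gene at 429.4 ± 26.8 TPM. Each of these pairs is separated in every library, so in them a shared start region went with levels far apart, in both directions. Other pairs stood nearer, such as Mrpl41 (17.3 ± 2.29 TPM) with Pnpla7 (17.6 ± 5.4) and Mrps7 (9.39 ± 1.01) with Gga3 (7.23 ± 1.42). Near and distant pairs were not counted. In others both genes act in mitochondria: Mrpl36 (12.8 ± 1.5 TPM) and the complex I gene Ndufs6 (34.2 ± 3.49), Mrpl47 (6.07 ± 1.05) and the complex I gene Ndufb5 (25.6 ± 2.6), and Mrps12 (17.7 ± 1.95) and Sars2, the mitochondrial seryl-tRNA synthetase (1.91 ± 0.338). Of the members, 32 overlap a gene on the opposite strand, and the sources used here do not say whether the counting used the strand. The counts of such overlapping stretches are uncertain to that extent.

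Promoter windows from RefSeq (build GRCm38.p6, 250 bases before to 50 after a gene start) with a start within 1000 bases of the annotated one were matched for 65 of 78 members. They were searched on both strands for the motifs of factors known for nuclear genes of mitochondria. The NRF1 motif (GCGCA, any base, GCGC) was present in 20% of the members' windows, in 11.2% of those of protein-coding genes tested and in 4.6% of all 32851 windows. The ETS motif CCGGAAG, bound by GABP, was present in 35.4%, 19.4% and 8.86%, and the YY1 motif AAGATGGC in 13.8%, 4.94% and 2.75%. In the respiratory chain windows NRF1, ETS and YY1 motifs were present in 25%, 25% and 13.3%, and in the cytosolic ribosomal protein windows in 8.33%, 38.3% and 10%, so the ETS share was higher there than in the members. The GC box GGGCGG was present in 50.8%, 65% and 35.7%. CCAAT was present in 38.5%, 39.3% and 37.4% and TATAAA in 4.62%, 6.93% and 13.6%. Of the 65 members, 37 held at least 1 of the first 3 motifs and 0 held all 3. These joint counts were not made over other genes, so they cannot be read as particular to the members. The 23 members with the ETS motif had a median of 17.1 TPM and the 42 without it 10.2. Over the protein-coding genes tested that had a window, these medians were 7.16 and 4.64, so genes in general were also higher with the motif. In the respiratory chain list they were 84.1 and 38.6, whereas in the cytosolic list they ran the other way, at 152.0 and 165.7. Members with the YY1 motif had a lower median (9.52 TPM) than those without it (13.4). Those with the NRF1 motif stood at 14.4 and without it at 13.1. Over the protein-coding genes tested the medians were 6.99 with YY1 and 5.07 without it, and 6.92 and 4.97 for NRF1. A match is a description of the letters, not of binding, and no binding was measured.

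The 250 bases before the start are shown for the 3 highest and the 3 lowest members with a window, because they bracket the range of levels. Capitals mark matches of the NRF1, ETS and YY1 motifs, all on the mm10 coordinates and strand given and written 5′ to 3′ toward the gene. Mrps21 is chr3:95871515-95871764 minus, Mrpl52 chr14:54426659-54426908 plus, Mrpl27 chr11:94653541-94653790 plus, Mrpl50 chr4:49521084-49521333 minus, Mrps31 chr8:22411090-22411339 plus and Mrps27 chr13:99344536-99344785 plus.
Mrps21: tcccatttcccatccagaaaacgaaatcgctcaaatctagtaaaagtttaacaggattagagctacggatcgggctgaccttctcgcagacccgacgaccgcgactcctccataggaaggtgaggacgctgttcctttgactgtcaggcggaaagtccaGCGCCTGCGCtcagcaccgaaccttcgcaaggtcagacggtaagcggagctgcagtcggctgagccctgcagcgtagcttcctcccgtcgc
Mrpl52: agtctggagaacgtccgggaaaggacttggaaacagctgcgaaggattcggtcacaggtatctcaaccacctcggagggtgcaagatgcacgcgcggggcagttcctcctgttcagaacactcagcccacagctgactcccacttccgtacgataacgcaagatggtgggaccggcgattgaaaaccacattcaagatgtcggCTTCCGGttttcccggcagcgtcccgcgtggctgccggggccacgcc
Mrpl27: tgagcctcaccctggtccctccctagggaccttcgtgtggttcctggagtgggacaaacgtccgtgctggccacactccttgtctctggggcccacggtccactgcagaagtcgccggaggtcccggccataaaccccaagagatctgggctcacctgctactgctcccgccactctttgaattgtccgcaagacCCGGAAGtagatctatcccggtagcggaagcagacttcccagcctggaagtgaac
Mrpl50: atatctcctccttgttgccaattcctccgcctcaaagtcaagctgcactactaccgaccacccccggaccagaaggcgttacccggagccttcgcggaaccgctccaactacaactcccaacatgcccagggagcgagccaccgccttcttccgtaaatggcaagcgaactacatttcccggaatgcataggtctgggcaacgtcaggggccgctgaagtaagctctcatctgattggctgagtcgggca
Mrps31: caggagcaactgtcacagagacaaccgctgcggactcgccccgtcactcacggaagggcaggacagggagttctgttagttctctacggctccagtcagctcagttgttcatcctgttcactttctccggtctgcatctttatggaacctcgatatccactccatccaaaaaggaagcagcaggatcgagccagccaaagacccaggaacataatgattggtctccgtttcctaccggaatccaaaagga
Mrps27: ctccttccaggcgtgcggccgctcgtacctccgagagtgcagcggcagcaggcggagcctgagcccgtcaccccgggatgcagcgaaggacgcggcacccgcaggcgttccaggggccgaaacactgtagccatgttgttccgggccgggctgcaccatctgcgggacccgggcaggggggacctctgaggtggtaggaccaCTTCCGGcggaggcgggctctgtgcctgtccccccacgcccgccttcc

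In the printed bases Mrps21 holds an NRF1 match, and Mrpl52, Mrpl27 and Mrps27 hold an ETS match. Mrpl50 and Mrps31, both of the lower group, hold none of the 3, but neither do 28 of the 65 windows in all, and Mrps27 has a match at the second lowest level of all members. The share of windows with none was not taken over other genes.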

How the data were processed

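Levels of the mitochondrial ribosomal protein genes were taken from 4 libraries of 1 group, grouped and numbered by the labels. Per the file headers, the authors' gene tables and first transcript tables hold expected counts, TPM and posterior mean TPM, and their second transcript tables hold estimated counts and TPM. Per the labels and the deposited notes, the values were made on mm10 with annotation M21, the first by way of reads aligned to transcripts and the second straight from read files. Not given in the sources used here are the aligner, the quantification tools and the use of strand. Rows of no annotated gene (26345 numbered, spike-in and phiX rows, 0.0238% to 0.383% of counts) stayed out of the tests. A count of 0 allows up to 3 counts, or 0.0622 to 0.0978 CPM, and this limit covers counting error only, because no molecular identifiers were counted.

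All genes whose expected counts summed to 10 or more were tested with limma 3.58.1 on log2(TPM + 0.1), an intercept-only fit with a variance trend. The tests were one-sided against 1 TPM and, with treat at a log2 difference of 1, two-sided against the median member of the library. Fold differences are on that scale and understate changes of low genes. The quantifications were compared with treat without a trend, for genes of at least 1 TPM in either. A call was an adjusted p (Benjamini-Hochberg, over every gene tested) below 0.05. BCV came from edgeR 4.0.16 on expected counts rounded to whole numbers, and DESeq2 1.42.0 served as an alternative. Transcripts were aligned with blastn 2.17.0. The software was Python 3.11.15 with pandas 2.3.3 and matplotlib 3.10.9, and R 4.3.3, and the fits were tested on simulated data. Alternatives were pseudocounts, filters, scales, the second quantification, posterior mean TPM, the variance trend and leaving out each library.

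The members, the lists and the tests were chosen with earlier results of these data known. The members given in every library are the 5 highest and 3 lowest of each subunit name, the S18 paralogs, Mrps30 and Mrps36, the 3 of largest and 3 of smallest BCV, those called different between the quantifications, and up to 6 of the highest members that are split or led by a transcript not typed protein-coding. Of the other lists, the 2 highest and those below 1 TPM could be named. Other genes were named after their values were seen.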

Additional observations from a re-analysis of the deposited data

Results flagged for a closer look

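In 1 of 82 sets of 4 values looked at (the 78 members, 3 list medians and the share of counts), 1 library stood apart from the other 3. Mrps34, a small subunit protein without a bacterial counterpart, was given 10.6 TPM in replicate 2 and 12.6, 12.7 and 12.4 TPM in replicates 1, 3 and 4. The gap to the nearest library was 0.837 of the whole range, above Dixon's 95% critical value for 4 samples. Chance marks about 1 in 20 such sets. Replicate 2 was the lowest library for 68 of the 78 members on deposited TPM. On that scale Mrps34 is therefore low in the library that was low for most. After rescaling to protein-coding genes, its level in replicate 2 (42 TPM) was above that in replicate 1 (39.6 TPM). The lowest library for this gene was then replicate 4, with 33.8 TPM.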

How the results depend on the processing

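All 78 members were above 1 TPM and 0 below under each alternative except the second quantification (76 above, 0 below), where Mrps27 was no longer called (log2 level 0.41 against 1 TPM) and Mrpl23 turned to -0.22, also uncalled. No share over all genes was taken there, and most genes had lower TPM in it. The 7 members called above the median member were the same 7 under each alternative that kept the fold threshold, and 7 or 8 were called below it. With no fold threshold 32 were above and 34 below (41.0% and 43.6% of the members, against 19.3% and 74.7% of all genes tested). Mrps6 also lost its call with a pseudocount of 1 (-1.16). Of 180 such values of single members, 174 kept their call and 0 reversed.

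The count of members lower in the second quantification, 2 on deposited TPM, was 4 with a pseudocount of 1 (5.13%, against 12.8% of all genes tested), 37 of 71 tested among genes of at least 5 TPM (52.1%, against 48.4%) and 0 on the rescaled values, and 1 to 2 with each library left out; the cause was not tested. The median BCV of the members was 0.0854 with DESeq2 and 0.125 to 0.162 with each library left out. The median member stood at 42.0 TPM rescaled to protein-coding genes and 4.67 TPM in the second quantification, the median gene named Mrpl at 44.3 and 5.07, and the median gene named Mrps at 32.1 and 3.92. The rescaling changes the total by construction, and the cause of the lower medians in the second quantification was not tested. The ratio of Mrpl to Mrps was 1.28 in the second quantification and 1.37 to 1.40 with each library left out. The share of counts on the members was 0.132% in the second quantification and 0.1425% to 0.1524% with each library left out. With each library left out, medians were 12.4 to 13.6, 13.1 to 14.2 and 9.46 to 10.4 TPM for the members, Mrpl and Mrps. Split members numbered 7 at a threshold of 50% and 19 at 70%, and 10 to 12 with each library left out, and members led by a transcript of another type 11 to 13.

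No paired analysis was possible because the libraries form 1 group. Precision is limited by 4 libraries of 1 group. Each member had at least 156 expected counts in every library, and the spread of the lowest members includes counting error. The division of reads between genes or transcripts that share sequence is the limit for Mrpl23, Mrpl53 and the split members.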

Other observations

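Regulators of nuclear genes for mitochondria were measured beside the genes they are known for. Of 11 such genes, 9 had enough counts to be tested and all 9 were above 1 TPM, with a median of 4.72 ± 0.896 TPM over the 11 (SD, n = 4). Esrra, a nuclear receptor, was highest at 10.5, 9.11, 11.6 and 13.3 TPM in replicates 1 to 4. Yy1 followed at 7.39, 6.52, 8.47 and 9.38 TPM, lowest in replicate 2 and highest in replicate 4, as were genes in general on deposited TPM. Of the factors whose motifs were searched, Gabpa stood at 7.18 ± 1.61 TPM and Nrf1 at 4.88 ± 0.887. The genes Mycn (listed at 0 TPM) and Ppargc1a (mean 0.0025 TPM) were the 2 with too few counts, whereas the related coactivators Pprc1 and Ppargc1b were at 6.58 ± 1.35 and 1.62 ± 0.452 TPM. Gabpa, Nrf1, Mycn, Ppargc1a, Pprc1 and Ppargc1b were named after their values were seen. These are mRNA levels in 1 group, and their relation to the levels of the ribosomal protein genes was not tested.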
